A study of Homo sapiens with 48 samples.

Results

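Interferon-stimulated genes are the genes that cells switch on when they sense interferon. A list of 47 of them was followed in cultured human kidney tubule cells exposed to 4 compounds that the labels name only as CsA, Fk, Ra and Nnm. A gene was taken into the account when at least 1 probe set of the array carried its symbol and no other, and the probe set with the highest mean stood for the gene. On this rule 46 of the 47 were measured among 19775 genes, and 39 passed the filter on dim probe sets (a log2 value above 4 in at least 3 of 48 arrays), which 11356 genes passed in all. The one without such a probe set, STAT2, a subunit of the factor that interferon activates, was not analysed here.

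The cells were HK-2, a line derived from human proximal tubule epithelium and kept as an established culture, seeded 24 h before exposure and treated near confluence. The 48 arrays form 16 groups of 3 biological replicates in 3 sets. In the set labelled lab 3, cells received CsA or vehicle for 12 h or 48 h. In the second, cells received Fk, Ra or vehicle for 12 h or 48 h, so that both compounds share their control arrays. In the third, cells received Nnm at a low or a high dose, or vehicle, for 24 h or 48 h, and again both doses share their controls. No source used here gives the doses or spells out the compound names. The labels call the replicates biological without saying from which cultures they came, so p-values measure the spread between these arrays.

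Interferons bind receptors on the cell surface, the receptors activate Janus kinases such as JAK1 and TYK2, and these phosphorylate STAT proteins. STAT proteins join IRF9 to form a complex that enters the nucleus and binds a promoter element called ISRE, whereas STAT dimers without IRF9 bind the GAS element and the factor IRF1 also binds ISRE-like sites. Many of the genes downstream block virus entry, translation or assembly, and epithelial cells of the kidney tubule can mount this response themselves.

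Many promoters of the listed genes hold the ISRE core, and stretches that carry it are given because the list is otherwise defined by name alone. RefSeq promoters (assembly GRCh38.p14, from 250 bases before to 50 bases after the start) were matched by symbol for 39 of the 47 genes, and each was searched on both strands for the ISRE core GAAANNGAAA and the GAS core TTCNNNGAA. These are not the 39 tested genes. They include the untested IFI27, MX1, SAMD9L, STAT2 and XAF1, and lack the tested IFIT2, OASL, USP18, IRF7 and IFITM2. The ISRE core was found for 29 of the 39 genes with an entry (74.4%) and not for 10. It was found for 4.38% of all 27305 genes with a promoter entry and 3.82% of the 9370 of them that were tested here. The GAS core was found for 12 (30.8%), against 9.38% of all genes. Below, capitals mark the ISRE core, which reads TTTCNNTTTC where it lies on the other strand; each line reads 5′ to 3′ on the strand of the gene.
HERC5, chr4:88456984-88457063, plus strand: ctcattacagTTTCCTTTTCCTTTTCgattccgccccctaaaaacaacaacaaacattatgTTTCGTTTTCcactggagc
IFIT1, chr10:89392478-89392557, plus strand: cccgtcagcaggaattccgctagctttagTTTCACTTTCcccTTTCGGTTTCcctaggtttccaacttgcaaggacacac
IFIT3, chr10:89332421-89332500, plus strand: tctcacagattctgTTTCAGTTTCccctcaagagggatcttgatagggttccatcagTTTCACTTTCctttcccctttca
IFI44, chr1:78649709-78649788, plus strand: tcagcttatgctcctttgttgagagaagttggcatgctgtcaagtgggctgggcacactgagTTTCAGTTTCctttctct
TAP1, chr6:32853791-32853870, minus strand: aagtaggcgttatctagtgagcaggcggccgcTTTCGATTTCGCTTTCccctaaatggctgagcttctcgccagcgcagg
BST2, chr19:17405713-17405792, minus strand: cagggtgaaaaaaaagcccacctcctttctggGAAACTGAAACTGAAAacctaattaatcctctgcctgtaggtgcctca
SAMD9, chr7:93118071-93118150, minus strand: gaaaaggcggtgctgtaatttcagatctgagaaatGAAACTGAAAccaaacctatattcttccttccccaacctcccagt
TMEM140, chr7:135147984-135148063, plus strand: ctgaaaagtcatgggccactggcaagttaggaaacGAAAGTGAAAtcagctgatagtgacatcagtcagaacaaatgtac
ISG15, chr1:1013352-1013431, plus strand: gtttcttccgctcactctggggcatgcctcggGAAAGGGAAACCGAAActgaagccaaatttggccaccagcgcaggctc
The first 5 of these genes rose in at least 1 Nnm comparison, BST2 and SAMD9 moved in opposite directions under Ra at 48 h, TMEM140 rose under CsA, and ISG15 is shown because it was called in no treatment comparison although its promoter holds overlapping copies of the core. The core was thus present in genes that rose, in genes that fell and in a gene without a call under any compound. IRF1, IRF9, OAS1, IFI35 and SP110 held a GAS core and no match to this ISRE core in the window. The search allowed only the spacing of GAAANNGAAA, so elements with repeats spaced otherwise were missed. OAS1 and IFI35 hold GAAACGAAA and GAAATGAAA, in which the repeats lie closer. IFIT2, OASL and USP18, which carry several of the results below, had no promoter entry.

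**Figure D1:**
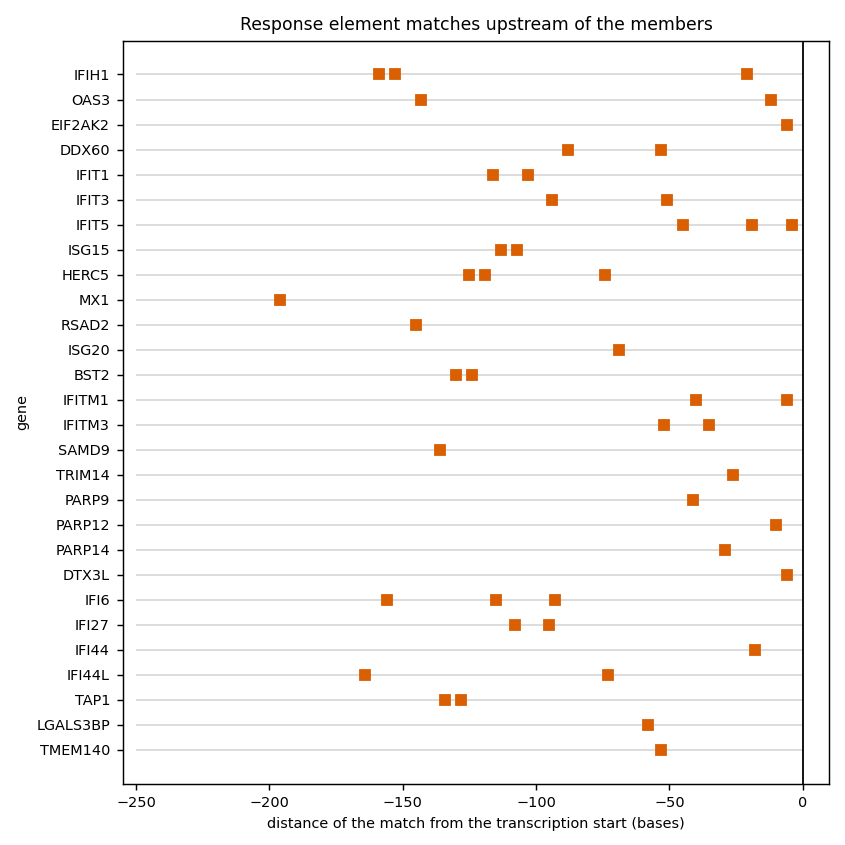
Distance in bases of each ISRE core match before the start of the gene, for the 28 listed genes with a match on that side. The match nearest to the start lay 4 to 196 bases before it, with a median of 53.

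The listed genes were not silent in these cells before any compound was added. ISG15, the ubiquitin-like protein that gives its name to a conjugation system, had a mean between 10.03 ± 0.41 and 11.24 ± 0.31 (log2 value, SD, n = 3) in the 6 control groups. All 9 interferon ligand genes looked for were below the filter or off the array: 8 had a probe set and none passed, so interferon transcripts were not detectable at the array's sensitivity. Of the genes most used as signs of an interferon response, MX1, MX2, OAS2, IFI27 and XAF1 were above log2 4 in 0 of 48 arrays. MX1, a GTPase that traps viral particles, reached 3.82 at most. SAMD9L passed log2 4 on 2 arrays, both of CsA at 48 h (2.67, 5.31 and 4.27 in replicates 1, 2 and 3, against 2.54, 2.60 and 2.51 in the controls), and TRIM22 on 1 array of the high dose of Nnm at 48 h (4.47, against 2.32 and 2.85 in its other replicates). Values of different probe sets are not comparable as amounts of RNA, so genes are compared only with themselves.

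**Figure D2:**
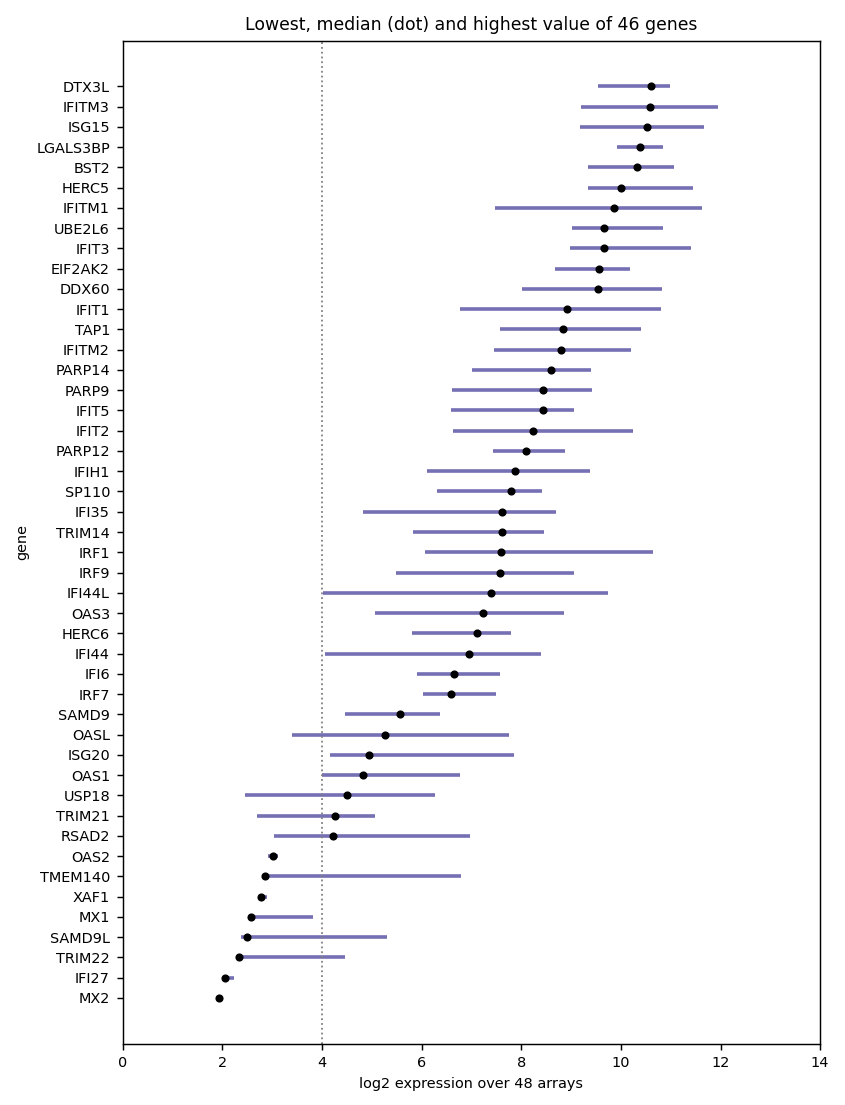
Lowest, median and highest log2 value of the 46 measured genes over all 48 arrays; the dotted line marks log2 4. Genes whose whole range lies below the line, such as MX1 and IFI27, were not tested.

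Over the 16 group means the genes differed in how far they moved. IFI44L covered 4.29 log2 units (4.91 to 9.2), IFITM1 3.44, TMEM140 3.21, IRF1 3.08 and OAS3 3.07, whereas LGALS3BP, a secreted glycoprotein, covered 0.56 and DTX3L, a ubiquitin ligase, 0.70. Part of the wide ranges lay between sets and between replicates of untreated cells. The IFI44L controls at 12 h read 7.87, 7.88 and 5.02 in the CsA set and 5.09, 5.23 and 4.42 in the Fk and Ra set, and the Nnm controls at 24 h read 8.16, 8.26 and 6.18. In IFI44L the third replicate was the lowest in each of these groups. IFITM1, a membrane protein that blocks virus entry, read 11.05, 10.97 and 7.91 in the CsA controls at 12 h and 7.93, 8.40 and 7.48 in the Fk and Ra controls. Set and laboratory cannot be told apart here, so each compound is compared only with the vehicle group of its own set and time.

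Several arrays stood apart from the rest. The upper quartile of all log2 values was 6.19 for Ra 48 h replicate 2 and 6.83 for Fk 12 h replicate 3. In the Nnm set, replicate 2 of every treated group differed little from its own control: the share of all tested genes more than 1 log2 unit away was 2.84% at the low dose and 24 h, against 12.1% and 13.0% in replicates 1 and 3, and 4.02% at the high dose and 24 h, against 23.6% and 22.7%. Of the proximal tubule markers DPP4, PAX8, KRT8 and KRT18 were measured in all groups, while ANPEP, LRP2, CUBN, SLC34A1, AQP1 and SLC22A6 were above log2 4 in 0 of 48 arrays. Of the 10 leukocyte markers with a probe set only CD74 passed, and PTPRC, CD3E and HLA-DRA were above log2 4 on no array; the summed level of the list was 8.24 to 10.35 (log2) over the arrays. In bulk RNA such as this, fewer cells with a transcript and less of it per cell cannot be told apart.

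Changes are given as treated minus vehicle on the log2 scale with the standard error (SE), from limma fitted to all 11356 genes. They are called at a Benjamini-Hochberg adjusted p below 0.05 over those genes. This fit ignored the replicate numbers unless a block on them is named. Over the 10 comparisons of a compound with its vehicle, 18 of the 39 genes were called at least once and 21 never, in 30 of 390 gene and comparison pairs (7.69%). Over all genes 7.3% of such pairs were called, so the listed genes as a whole were called about as often as others. Nnm accounted for 22 of the 30 (73.3%, against 73.1% of the calls over all genes): 10 genes rose under it and 3 fell (OAS3, TRIM14 and IFI35). Of the other 8, 6 were under Ra and 2 under CsA.

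**Figure D3:**
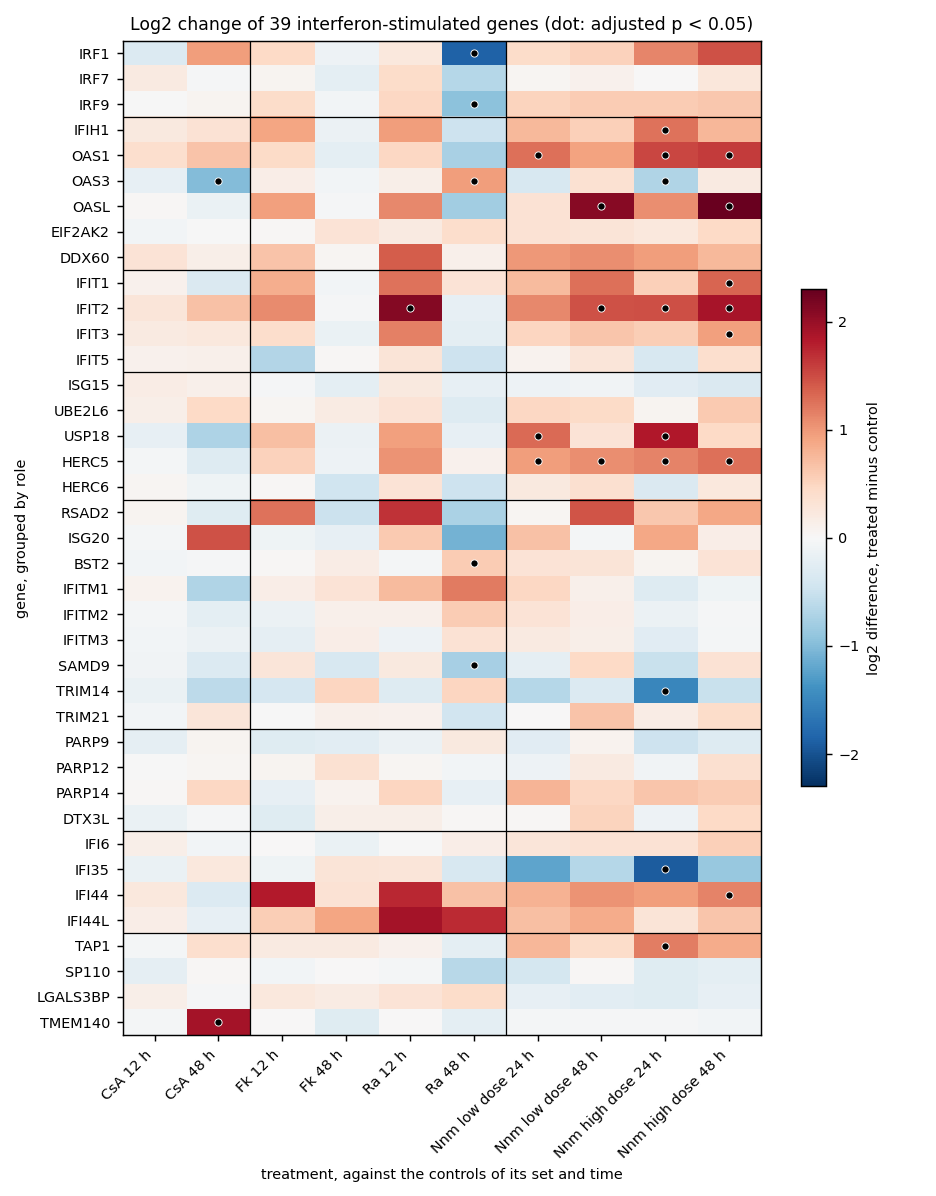
Log2 change against vehicle of the 39 tested genes (vertical axis, by role) in the 10 treatment comparisons (horizontal axis); red is higher, blue lower, and dots mark adjusted p below 0.05 in limma. Dots gather in the Nnm columns for HERC5, IFIT2, OAS1 and OASL, and the CsA 12 h, Fk 12 h and Fk 48 h columns hold none.

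Under the low dose of Nnm at 24 h, OAS1, USP18 and HERC5 rose and none fell. These are 7.69% of the 39 genes, against 3.58% of all genes called higher. At 48 h OASL, IFIT2 and HERC5 rose, again 7.69%, against 2.77% of all genes. The 39 changes had medians of 0.32 and 0.37, where all genes had 0.008 and 0.016; 28 and 33 of the 39 were above 0. Treated and vehicle arrays did not overlap for 14 and 19 of the 39 on the higher side, against 20.0% and 19.7% of all genes. On the lower side it was 5 and 0, against 18.0% of all genes at 24 h and 1734 of 11356 at 48 h. With the replicate number as a block, 7 were called at 24 h, adding DDX60, IFIT2, PARP14 and the lower IFI35, or 17.9% of the 39 against 18.0% of all genes called in either direction. At 48 h the block also gave 7, all higher, adding DDX60, IFIT1, RSAD2 and TRIM21, against 6.75% of all genes higher. Leaving out 1 array gave 0 to 5 calls at 24 h: 1 without control replicate 1 or treated replicate 1, 0 without replicate 3 of either group, and 5 without treated replicate 2. The 48 h count fell to 1, HERC5, without either control replicate 1 or treated replicate 3.

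Under the high dose of Nnm at 24 h, 6 genes rose (IFIH1, OAS1, IFIT2, USP18, HERC5 and TAP1) and 3 fell (OAS3, TRIM14 and IFI35). The higher calls are 15.4% of the 39 and the lower 7.69%, against 10.5% and 12.5% of all genes, so the calls together were near the background. At 48 h 7 rose (OAS1, OASL, IFIT1, IFIT2, IFIT3, HERC5 and IFI44), or 17.9%, against 8.89% of all genes, and none fell. The medians of the 39 were 0.17 and 0.46, where all genes had −0.009 and 0.018. On the higher side 14 and 19 of the 39 did not overlap with vehicle, against 18.8% and 19.6% of all genes. The lower side held 5 and 0, against 19.2% of all genes at 24 h and 1866 of 11356 at 48 h. The block on replicate number gave 14 and 11 calls, adding IRF1 at both times, OASL, DDX60, ISG20 and the lower SAMD9 at 24 h, and UBE2L6, IFI6 and TAP1 at 48 h. With that block 15.6% of all genes were called higher and 18.1% lower at 24 h, and 14.4% higher at 48 h. Leaving out 1 array gave 4 calls at 24 h without treated replicate 1 and 3 without treated replicate 3. At 48 h it gave 4 without replicate 1 or 3 of either group, IFI44, IFIT1 and IFIT3 being those lost, and 10 without treated replicate 2.

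Under Ra at 12 h IFIT2 rose, 2.56% of the 39 against 0.0528% of all genes. Its call was lost without control replicate 2 or 3 or Ra replicate 1 or 2 (adjusted p 0.0918, 0.286, 0.192 and 0.383 in limma), while 3 genes were called without control replicate 1 and 2 without Ra replicate 3. In the same comparison 33 of the 39 changes were above 0, with a median of 0.31. Of all genes 53.1% were above 0, with a median of 0.015. Ra and vehicle arrays did not overlap for 13 of the 39 on the higher side, against 17.2% of all genes. On the lower side this held for 0 of the 39, against 1703 of 11356 genes. With the replicate number as a block 6 were called, all higher: IFIT2, DDX60, IFIT3, HERC5, IFI44 and IFI44L. These are 15.4% of the 39, against 0.493% of all genes called higher. Whether the numbers pair the arrays of this set is uncertain. Under Ra at 48 h OAS3 and BST2 rose, 5.13% of the 39 against 2.97% of all genes, and IRF1, IRF9 and SAMD9 fell, 7.69% against 15.6%. The median of all genes was itself −0.178 in this comparison, and that of the 39 was −0.18. Under quantile normalization or centring, which brought the median of all genes to 0.012 and 0.074, 4 of the 39 were called higher and 0 lower: OAS3 and BST2 kept their calls, and IRF1, IRF9 and SAMD9 lost theirs with adjusted p of 0.0775, 0.115 and 0.078 after quantile normalization. Over all genes the split was 337 higher and 1769 lower as deposited, 840 and 1034 after quantile normalization, and 1028 and 903 after centring. When the dim array (Ra replicate 2) was left out, IRF1 and IRF9 were also lost and 3 were called; without Ra replicate 3, 3 were called, and without control replicate 1, 2 or 3, the counts were 0, 1 and 9.

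Under CsA at 48 h TMEM140 rose and OAS3 fell, each 2.56% of the 39, against 0.299% of all genes higher and 0.722% lower. The 39 changes had a median of −0.01, where all genes had 0.002. None was called without CsA replicate 2 or 3 or control replicate 1, and 1 without control replicate 3. With the replicate number as a block ISG20 was called too (change 1.46, adjusted p 0.00832 in limma, against 0.0909 without the block). That made 3 calls, 7.69% of the 39 against 4.39% of all genes. CsA at 12 h gave 0 calls in limma among the 39, with 0.0% of all genes called and 0 of the 39 at an unadjusted p below 0.05, against 0.317% of all genes; its largest changes were 0.39 for OAS1 and −0.32 for IRF1. Fk gave 0 calls in limma at 12 h and 48 h, with 0.0% and 0.0% of all genes called. At an unadjusted p below 0.05 there were 7 of the 39 at 12 h and 0 at 48 h, against 6.27% and 2.74% of all genes. The median of the 39 at 12 h was 0.06, and 27 were above 0. At 12 h Fk and vehicle arrays did not overlap for 8 of the 39 on the higher side, against 9.29% of all genes. On the lower side this held for 0 of the 39, against 737 of 11356 genes. At 48 h the largest changes under Fk were 0.91 for IFI44L and −0.50 for RSAD2.

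Of the transcription factors, IRF1 varied most. IRF1 induces antigen-presentation genes and is itself switched on by interferon gamma. In the Fk and Ra set at 48 h it read 9.72, 9.09 and 8.15 in the controls, 9.83, 8.94 and 7.82 under Fk, and 7.29, 6.39 and 7.70 under Ra. The 3 Ra arrays lay below the 3 controls, and those of Fk overlapped with the controls. The Ra change was −1.86 ± 0.62 (adjusted p 0.0347, limma). A second probe set of IRF1 changed by −1.34 under Ra (adjusted p 0.11, limma). The Nnm values of IRF1 were carried by replicates 1 and 3: the controls at 48 h read 6.79, 6.37 and 6.33 and the high dose 8.92, 6.55 and 8.44. Its change of 1.47 passed with the replicate block and not without it. IRF9, the subunit that gives the STAT complex its DNA contact, read 7.51, 7.42 and 6.78 in the controls and 7.14, 5.49 and 6.23 under Ra at 48 h, so that the groups overlapped; it fell by 0.95 ± 0.34 (adjusted p 0.0449, limma). IRF7, which amplifies interferon production, was never called; its Ra 48 h change was −0.66 (adjusted p 0.0632, limma).

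The RNA sensors and the oligoadenylate synthetases, enzymes that make the messenger activating RNase L, held rises of OAS1 and OASL and movements of OAS3 in both directions. OAS1 read 4.03, 4.50 and 4.0 in the Nnm controls at 24 h, 5.5, 4.67 and 6.18 at the low dose and 6.04, 5.20 and 5.87 at the high dose. All treated arrays were above all controls, replicate 2 least. OAS1 rose by 1.27 ± 0.36 at the low dose (adjusted p 0.0258) and by 1.53 ± 0.36 at the high dose (adjusted p 0.00308, limma). At 48 h it rose by 1.61 ± 0.36 at the high dose, from 4.54, 4.56 and 4.25 to 5.65, 5.74 and 6.78. OASL, a catalytically inactive relative that enhances RNA sensing, read 3.40, 5.65 and 5.33 in the controls at 48 h, 6.47, 6.43 and 7.75 at the low dose and 6.98, 7.16 and 7.10 at the high dose. Every treated array was above the highest control. The rises were 2.09 ± 0.46 (adjusted p 0.00575) and 2.28 ± 0.46 (adjusted p 0.000968, limma). The OAS1 controls at 24 h and the lowest OASL control lie near or below log2 4, where the array separates levels poorly. IFIH1, the sensor of long double-stranded RNA, rose at the high dose and 24 h by 1.24 ± 0.37 (adjusted p 0.0159, limma), from 7.60, 7.92 and 7.18 to 8.89, 8.14 and 9.39.

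OAS3, the synthetase that needs the longest double-stranded RNA, fell where OAS1 rose at the high dose of Nnm and 24 h, but not at 48 h. Its Nnm controls at 24 h read 7.39, 7.47 and 7.72 and the high dose 6.51, 7.12 and 6.87, a fall of 0.69 ± 0.26 (adjusted p 0.0499, limma). Under CsA at 48 h OAS3 read 5.63, 5.07 and 5.77, below the controls at 6.42, 6.43 and 6.62; the fall was 1.00 ± 0.26 (adjusted p 0.0483, limma). Both of these lay close to the threshold, and each kept its call in only 1 of 6 fits with 1 array left out. Both calls were also lost after quantile normalization. Under Ra at 48 h OAS3 read 7.47, 7.45 and 8.19, above the controls at 6.45, 6.54 and 7.23, and Fk in the same set read 6.44, 6.45 and 7.13. The Ra rise was 0.96 ± 0.26 (adjusted p 0.009, limma). OAS3 was thus lower under CsA at 48 h and under the high dose of Nnm at 24 h and higher under Ra at 48 h, each against its own vehicle.

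The IFIT family, proteins that bind viral RNA caps and halt translation, held the largest rise under Ra. IFIT2 read 8.03, 7.64 and 6.62 in the 12 h controls, 9.57, 10.24 and 8.85 under Ra and 9.21, 8.72 and 7.62 under Fk. All Ra arrays were above all controls, while the Fk values overlapped with them. The Ra change was 2.12 ± 0.43 (adjusted p 0.0263, limma) and that of Fk 1.09 without a call. At 48 h the same gene read 7.97, 8.17 and 7.96 in the controls and 8.13, 7.14 and 8.30 under Ra, so the groups overlapped. In the Nnm set IFIT2 rose at the low dose and 48 h by 1.46 ± 0.43 and at the high dose by 1.49 ± 0.43 at 24 h and 1.89 ± 0.43 at 48 h (adjusted p 0.0382, 0.0119 and 0.00265, limma). At 48 h its controls read 7.16, 8.42 and 7.54, the low dose 9.27, 8.70 and 9.53 and the high dose 10.05, 8.96 and 9.78. No treated array reached down to the highest control. A second probe set of IFIT2 moved in the same direction with adjusted p of 0.151 for Ra 12 h and 0.0904, 0.0203 and 0.011 for these Nnm comparisons.

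IFIT1 and IFIT3 were called at the high dose of Nnm and 48 h. IFIT1 read 7.74, 8.90 and 8.37 in the controls and 9.73, 9.48 and 9.78 under Nnm, without overlap, and rose by 1.33 ± 0.43 (adjusted p 0.0315, limma). IFIT3 read 9.29, 9.54 and 9.43 in the controls and 10.98, 9.39 and 10.72 under Nnm; replicate 2 lay among the controls and the rise was 0.94 ± 0.31 (adjusted p 0.0365, limma). Under Ra at 12 h IFIT1 had a change of 1.25 and IFIT3 of 1.16 (adjusted p 0.367 and 0.188, limma). For IFIT3 these rest on 11.10, 11.40 and 10.27 against 10.34, 9.77 and 9.19, groups that overlap by 1 array. The median change of the 4 tested IFIT genes was 1.20 under Ra at 12 h, −0.20 under Ra at 48 h, 0.62 under Fk at 12 h and 1.14 under the high dose of Nnm at 48 h.

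In the ISG15 system, ISG15 itself stayed without a call in every treatment comparison, with changes between −0.33 and 0.23, while its ligase and its protease rose under Nnm. HERC5, the ligase that attaches ISG15 to newly made proteins, read 9.75, 10.14 and 9.65 in the Nnm controls at 24 h, 10.73, 10.67 and 11.05 at the low dose and 11.12, 10.59 and 11.26 at the high dose. At 48 h it read 9.69, 10.15 and 9.83, then 11.17, 10.44 and 11.27, then 11.44, 10.77 and 11.25. All 12 treated arrays were above all 6 controls. HERC5 rose by 0.97 ± 0.22 and 1.07 ± 0.22 at the low dose (adjusted p 0.00645 and 0.00313) and by 1.14 ± 0.22 and 1.26 ± 0.22 at the high dose (adjusted p 0.000492 and 0.000245, limma), and it was the only one of the 39 genes called in all 4 Nnm comparisons. Under Ra at 12 h it read 10.77, 10.97 and 10.36 against 9.95, 9.5 and 9.55, also without overlap, but the change of 1.03 had an adjusted p of 0.0504 in limma.

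USP18, the protease that removes ISG15 and damps the interferon receptor, rose under Nnm at 24 h. The controls read 2.46, 4.19 and 3.45, the low dose 4.50, 4.40 and 5.09 and the high dose 5.02, 4.50 and 6.11. The lowest treated array stood just above the highest control. The rises were 1.30 ± 0.35 (adjusted p 0.0198) and 1.84 ± 0.35 (adjusted p 0.00042, limma). The controls of USP18 lie near or below log2 4, where the array separates levels poorly. At 48 h the controls read 3.57, 4.38 and 4.33 and the high dose 4.50, 4.37 and 4.79, which overlapped.

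**Figure D4:**
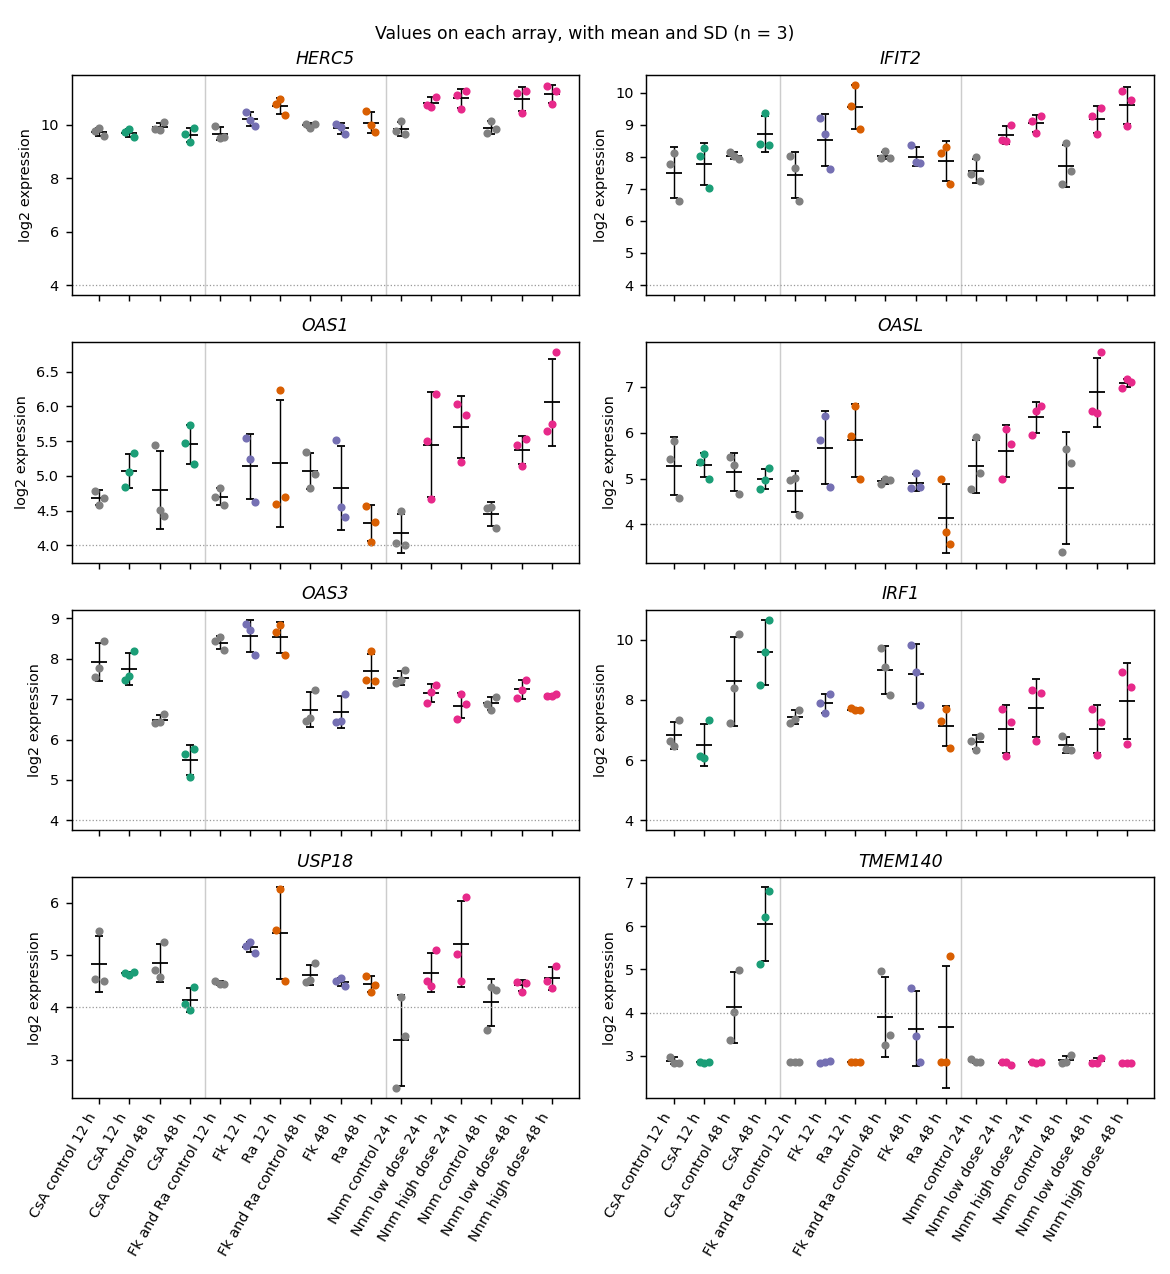
Log2 value on each array (points) with the mean and SD of each group for HERC5, IFIT2, OAS1, OASL, OAS3, IRF1, USP18 and TMEM140 over the 16 groups; vehicle controls are grey. HERC5 under Nnm sits between 10.44 and 11.44, above its controls at 9.65 to 10.15, and IRF1 and OAS3 differ between the control groups of 1 set.

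Of the 9 direct antiviral effectors that were tested, BST2, SAMD9 and TRIM14 were called. BST2, the tether that holds budding virus on the cell, read 9.34, 9.34 and 9.97 in the Fk and Ra controls at 48 h and 10.22, 9.84 and 10.37 under Ra; 1 control lay within the Ra range, and the rise was 0.59 ± 0.19 (adjusted p 0.0278, limma). SAMD9, a translation inhibitor, read 5.61, 5.31 and 5.53 in the same controls and 4.78, 4.84 and 4.53 under Ra, without overlap. It fell by 0.77 ± 0.22 (adjusted p 0.0146, limma). A second probe set of SAMD9 changed by −0.36 ± 0.23 (adjusted p 0.314, limma). TRIM14, an adaptor of the mitochondrial antiviral complex, read 8.45, 7.94 and 8.35 in the Nnm controls at 24 h and 6.31, 7.93 and 6.00 at the high dose. Replicate 2 was at the level of the lowest control, and the fall of 1.5 ± 0.36 (adjusted p 0.00311, limma) lay in replicates 1 and 3. A second probe set of TRIM14 changed by −0.35 (adjusted p 0.101, limma). RSAD2, which makes a chain-terminating nucleotide, was not called without the replicate block; its largest changes were 1.67 under Ra at 12 h and 1.44 under the low dose of Nnm at 48 h, the latter called with the block. ISG20, an exonuclease, changed by −1.09 under Ra at 48 h (adjusted p 0.065, limma). IFITM1 changed by 1.20 under Ra at 48 h (adjusted p 0.204, limma), and IFITM3, its relative in endosomes, was not called. The probe sets of IFITM2, IFITM3 and SP110 are of a kind that can pick up near-identical transcripts, so their values are uncertain.

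The 4 PARP and DTX3L genes, which add and read ADP-ribose, were called in 0 of the 10 treatment comparisons in limma; PARP14 passed at the low dose of Nnm and 24 h only with the replicate block (0.79). Of the small IFI proteins, IFI44 rose under the high dose of Nnm at 48 h, from 6.32, 7.63 and 6.53 to 8.23, 7.80 and 7.87, by 1.14 ± 0.39 (adjusted p 0.042, limma). In the Fk and Ra set at 12 h IFI44 read 6.87, 6.10 and 5.41 in the controls, 8.01, 7.86 and 7.99 under Fk and 7.82, 8.40 and 7.37 under Ra. Every treated array was above every control, yet the changes of 1.83 and 1.74 had adjusted p of 0.17 and 0.0781 in limma. IFI44L had the highest change of the 39 under Ra at 48 h, without a call (1.72, adjusted p 0.116), and IFI6, a mitochondrial protein, was not called without the block.

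IFI35, a leucine zipper protein, was the gene of the list with the largest fall in all 4 Nnm comparisons. Its controls at 24 h read 7.76, 7.78 and 7.84, the low dose 5.62, 7.61 and 6.5 and the high dose 4.82, 7.55 and 5.24. The controls were tight, and replicate 2 hardly moved. IFI35 fell by 1.92 ± 0.52 at the high dose and 24 h (adjusted p 0.00799, limma). The other changes, −1.22 and −0.66 at the low dose and −0.88 at the high dose and 48 h, were not called.

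Among the remaining genes, TAP1, the peptide transporter that loads MHC class I, rose under the high dose of Nnm at 24 h by 1.18 ± 0.34 (adjusted p 0.0117, limma). Its controls read 8.65, 8.75 and 8.63 and the treated arrays 10.41, 8.83 and 10.33. As with IFI35, replicate 2 was close to its control. TMEM140, a transmembrane protein, was near background in the CsA set at 12 h (2.84 to 2.98) and in all Nnm arrays (2.79 to 3.02). At 48 h it read 3.37, 4.01 and 4.99 in the CsA controls and 5.12, 6.20 and 6.80 under CsA, a rise of 1.92 ± 0.44 (adjusted p 0.0237, limma). It passed the filter with 8 of 48 arrays above log2 4, and Fk and Ra arrays at 48 h ran from 2.85 to 5.30. LGALS3BP was not called in any treatment comparison.

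Because the Nnm replicates pair across groups by number, each treated array can be set against its own control. More than 1 log2 unit separated 8, 0 and 12 of the 39 genes in replicates 1, 2 and 3 at the low dose and 24 h, 8, 1 and 9 at 48 h, 12, 0 and 13 at the high dose and 24 h, and 14, 3 and 12 at 48 h. Replicate 2 thus had the fewest in every Nnm comparison, as it had among all genes. The number of the 39 above their own control was 26, 27 and 28 at the low dose and 24 h, 31, 32 and 31 at 48 h, 22, 26 and 21 at the high dose and 24 h, and 29, 30 and 31 at 48 h. By this count replicate 2 lay between the others or above both. The median difference of the 39 in replicates 1, 2 and 3 was 0.2, 0.18 and 0.44 at the low dose and 24 h, 0.53, 0.22 and 0.42 at 48 h, and 0.61, 0.28 and 0.46 at the high dose and 48 h. Replicate 2 was the lowest in these 3 comparisons, but not at the high dose and 24 h, where the medians were 0.13, 0.15 and 0.0. Without replicate 2 of every Nnm group, an alternative chosen after seeing the data, 5 and 3 genes were called at the low dose, 24 h and 48 h, and 9 and 11 at the high dose. These are 12.8%, 7.69%, 23.1% and 28.2% of the 39, against 13.2%, 8.78%, 31.2% and 22.9% of all genes. Counted in both directions, the first 3 lay below the share of all genes and the last a little above it. Most of the calls were rises. The falls were of IFI35 at the low dose and 24 h (−1.74) and at the high dose and 48 h (−1.36). At the high dose and 24 h IFI35 (−2.77) and TRIM14 (−2.24) fell. Of all genes 5.89%, 4.39%, 14.5% and 11.8% were called higher, in the same order. IRF1 was then called at the high dose and 48 h (2.12).

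**Figure D5:**
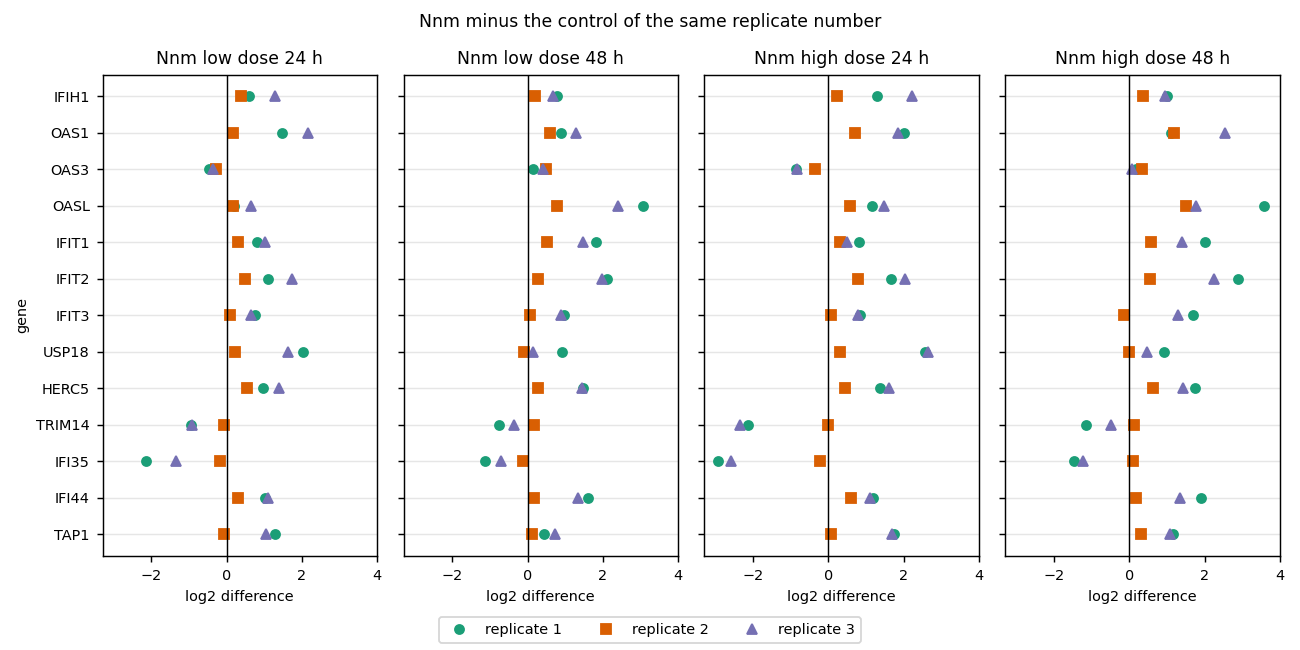
Log2 difference between each Nnm array and the control of the same number, for the 13 genes called in any Nnm comparison, with 1 panel per dose and time and 1 marker per replicate. The markers of replicate 2 lie nearest to 0 for IFI35, TRIM14 and TAP1 in the high dose panels.

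The dose of Nnm made no called difference among the 39 genes in limma: 0 were called for high against low at 24 h and 48 h, with 0.00881% and 0.0176% of all genes called. For HERC5 the difference was 0.17 at 24 h (95% interval −0.28 to 0.62) and 0.19 at 48 h (−0.26 to 0.64). For IFIT2 it was 0.37 (−0.50 to 1.25) and 0.43 (−0.44 to 1.31), and for IRF1 at 48 h 0.94 (−0.33 to 2.20). These intervals leave room for a higher response at the high dose as well as for none. Without replicate 2 of the high dose alone 2 genes were called at 24 h. The changes at 48 h and 24 h did not differ by a call at either dose, with 0.0% of all genes called at the low dose and 0.00881% at the high dose.

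Fk and Ra at 12 h differed in 0 of the 39 genes in limma, with 0.00881% of all genes called. For Fk minus Ra the gap was −1.36 for IFI44L (95% interval −2.93 to 0.21, adjusted p 0.724 in limma) and −1.03 for IFIT2 (−1.91 to −0.16, adjusted p 0.568). At 48 h OAS3 was lower under Fk than under Ra by 1.03 ± 0.26 (adjusted p 0.00618, limma), with 17.3% of all genes called (1721 higher and 241 lower under Fk as deposited, 834 and 687 after quantile normalization, 713 and 855 after centring). The gap lost its call without Fk replicate 1 (adjusted p 0.0562), and 6, 4 and 6 genes were called without Fk replicate 3, Ra replicate 1 and Ra replicate 3. The Ra changes at 48 h and 12 h differed for IFIT2, by −2.3 ± 0.61 (adjusted p 0.0284, limma), with 3.62% of all genes called; the median of this difference was −0.64 over the 39 and −0.186 over all genes. That call was lost when any of Ra 12 h replicates 1 and 2, Ra 48 h replicate 2, control 12 h replicates 2 and 3 or control 48 h replicates 1 and 2 was left out. Leaving out Ra 48 h replicate 1, Ra 12 h replicate 3, control 48 h replicate 3 or control 12 h replicate 1 gave 9, 4, 5 and 2 calls. RSAD2, IFIT3 and HERC5 had differences of −2.40, −1.38 and −0.94 with adjusted p of 0.0645, 0.068 and 0.0784 in limma. For CsA and Fk the changes at both times differed in 0 genes in limma, with 0.0% and 0.0% of all genes called.

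CsA was compared with Fk and Ra as a difference of changes against their own vehicles, in which compound and laboratory cannot be told apart. Against Fk it gave 0 calls in limma at 12 h and 48 h (0.0% and 0.0% of all genes), and against Ra 0 at 12 h (0.0%). At 48 h CsA minus Ra was called for 4 of the 39, with 16.5% of all genes called: 2.82 ± 0.88 for IRF1, 2.55 ± 0.59 for ISG20, 2.14 ± 0.62 for TMEM140 and −1.96 ± 0.37 for OAS3 (adjusted p 0.0259, 0.00393, 0.0173 and 0.000642, limma). After quantile normalization and centring TMEM140 lost its call (adjusted p 0.0661 and 0.0597, limma), and the split over all genes went from 1343 higher and 530 lower to 944 and 934 and to 935 and 940. ISG20 read 7.07, 7.86 and 7.43 under CsA and 4.97, 6.84 and 6.18 in its controls, and 5.30, 4.29 and 4.92 under Ra against 7.13, 5.87 and 4.78. The CsA arrays were above their controls, and the Ra arrays overlapped with theirs. Without CsA 48 h replicate 3 or the Fk and Ra control 48 h replicate 1, 2 of the 4 remained called. With the replicate block 8 were called, 20.5% of the 39 against 26.5% of all genes.

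The vehicle controls changed between 12 h and 48 h by themselves. OAS3 read 7.55, 7.76 and 8.45 at 12 h and 6.42, 6.43 and 6.62 at 48 h in the CsA set, and 8.44, 8.54 and 8.22 against 6.45, 6.54 and 7.23 in the Fk and Ra set. Later controls were below earlier ones in both, by 1.43 ± 0.26 and 1.66 ± 0.26 (adjusted p 0.000497 and 4.09e-05, limma). In the CsA set ISG20 was 1.25 ± 0.42 higher at 48 h (adjusted p 0.0434, limma), making 2 calls with 13.7% of all genes called. With the replicate block there were 9, which added IRF1 at 1.79, IRF7, IRF9, ISG15, BST2, IFI44L and TMEM140, with 24.1% of all genes. In that set 6 were called without the 48 h replicate 1, and 1 without the 48 h replicate 2 or 3 or the 12 h replicate 1 or 2. In the Fk and Ra set TRIM14, BST2 and PARP12 were also lower at 48 h, by 1.70 ± 0.36, 0.62 ± 0.19 and 0.59 ± 0.21 (adjusted p 0.00107, 0.0195 and 0.0468, limma), making 4 calls with 19.8% of all genes called; without the 48 h replicate 3 there were 9. The Nnm controls, at 24 h and 48 h, gave 0 calls in limma with 0.0% of all genes called. The IRF1 controls in the CsA set read 6.65, 6.48 and 7.34 at 12 h and 7.24, 8.40 and 10.20 at 48 h, a spread that the 12 h arrays do not show.

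Around the listed genes, 81 others of the interferon pathway were grouped into ligands, receptors, kinases and STAT proteins, sensors, feedback inhibitors, MHC class I genes and further induced genes, and 60 were tested. Under the high dose of Nnm at 48 h 12 of them rose and 3 fell (20.0% and 5.0%, against 8.89% and 7.88% of all genes). At the receptor and kinase level IFNAR2, a chain of the type I receptor, rose by 0.64, IL10RB by 0.77 and JAK2 by 1.32. TYK2, the kinase on the other chain of the type I receptor, fell by 0.83. Of the sensors TLR3, which reads double-stranded RNA in endosomes, rose by 1.57 and CGAS, which reads cytosolic DNA, by 1.58. Of the induced genes GBP2, GBP3, PLSCR1, SP100, IFI16 and NMI rose by 1.41, 1.16, 1.16, 1.24, 0.62 and 0.56, and PNPT1 fell by 0.87. Of the MHC class I genes PSMB9 rose by 1.29 and PSME1 fell by 0.4. At 24 h the high dose gave 5 higher and 3 lower, 8.33% and 5.0%, which is below the 10.5% and 12.5% of all genes; JAK2 rose by 2.56 from a mean of 3.38, near background. The low dose gave 3 higher and 2 lower at 24 h (5.0% and 3.33%, against 3.58% and 4.71% of all genes), and 3 higher and 1 lower at 48 h (5.0% and 1.67%, against 2.77% and 2.45%). GBP2 rose and PNPT1 fell in all 4 Nnm comparisons.

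Under Ra at 48 h 4 of the 60 rose and 8 fell, 6.67% and 13.3%, against 2.97% and 15.6% of all genes. After quantile normalization 7 were called higher and 4 lower, and after centring 7 and 3. Of the receptor chains of interferon gamma, IFNGR2 rose by 1.52 and IFNGR1 fell by 1.1; the second call was lost after quantile normalization (adjusted p 0.0765) and centring (adjusted p 0.0935, limma). TNFSF10, the death ligand also called TRAIL, rose by 1.57, and TAPBP and ZC3HAV1 by 0.59 and 0.61. TLR3, TRIM5 and IFI16 fell by 2.0, 1.32 and 0.91. All of these were called under both other scalings. PSMB8, TRIM25, SP100 and APOL6 fell by 0.58, 0.96, 0.89 and 1.27, and these lost their calls after centring. TNFSF10 fell by 1.5 under CsA at 48 h, the only call of the 60 in that comparison. CsA at 12 h, Fk at both times and Ra at 12 h gave 0 calls among the 60 in limma.

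Few of the endothelial, fibroblast and leukocyte markers passed the filter: 2 of 8, 3 of 8 and 1 of the 10 with a probe set. Of these, PECAM1 (change 0.82) and CD74 (change 0.87) were higher under the high dose of Nnm at 48 h. In that comparison 8.89% of all genes were called higher, and PECAM1 rose from a mean of 4.23, near log2 4. DPP4, a tubule marker, was higher at both doses at 48 h (1.18 and 1.00). CD74 is itself an interferon-responsive gene of antigen presentation, and PTPRC and CD3E stayed below log2 4 on every array. COL1A1, a fibroblast marker, was lower by 1.04 under Ra at 48 h, where 15.6% of all genes were called lower. PECAM1 was lower by 0.7 under Fk than under Ra at 48 h, with 17.3% of all genes called. LUM, another fibroblast marker, was lower by 1.36 in the CsA controls at 48 h than at 12 h, with 13.7% of all genes called. COL1A1, DCN and LUM were above log2 4 on all 48 arrays, and COL3A1, PDGFRA, PDGFRB and THY1 on 0. The part of these markers in the results was not tested.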

How the data were processed

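Messenger RNA of HK-2 cells was measured on 48 Affymetrix arrays. The deposited values are log2 expression values per probe set made by the authors with GCRMA, per the submitters' processing notes; the version is not given in the sources used here. GCRMA subtracts a background modelled from probe sequence and quantile-normalizes, so dim probe sets gather at a floor and small changes there are compressed. Of 54675 probe sets, 62 are controls, 41091 carry 1 symbol in the platform annotation, 1801 several and 11721 are not listed; 41037 gene identifiers were matched to the RefSeq gene table and 0 symbols changed. Probe sets above log2 4 in at least 3 arrays were kept (20960), and the one with the highest mean represented each of 11356 genes. The number of arrays limits the precision: the median SE of a change was 0.257.

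Groups were taken from the labels. limma 3.58.1 (R 4.3.3, statmod 1.5.0) fitted 1 mean per group over all arrays (32 residual degrees of freedom), with 26 contrasts and Benjamini-Hochberg adjustment within each. The steps were tested on simulated data, with 100 genes changed at each size in 1 comparison. There 47.0% of changes of 1 log2 unit and 93.0% of changes of 2 units were called. A gene without a call can thus have changed. Tables and figures used Python 3.11.15, pandas 2.3.3 and matplotlib 3.10.9. Replicate numbers come from the labels. Deviations from the group means correlated above 0.1 in 18 of 18 same-numbered pairs of the CsA set (mean 0.54). In the Nnm set it was 45 of 45 (mean 0.45), and in the Fk and Ra set 19 of 45. The arrays of the CsA and Nnm sets were thus read as paired by number. The main fit did not use this pairing, so its SEs, adjusted p and calls ignore it. The replicate block and the differences by replicate number used it. No 2 arrays held identical values.

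Named were every gene called in a comparison, the largest rise and fall in each of the 10 treatment comparisons, and a standing group (IFIT1, IFIT2, IFIT3, ISG15, MX1, OAS1, OAS3, STAT2, IRF1, IRF7, IRF9, IFI6, IFI27, BST2, IFITM3, TAP1, TMEM140 and LGALS3BP); other members were named where they lay near the threshold or outside the filter, chosen after their values were seen. Every pathway gene called was named for the high dose of Nnm, Ra and CsA at 48 h. In the other comparisons only some were. The members and lists were chosen with earlier results of these data known. Alternatives were quantile normalization, centring of arrays, no filter, the mean of probe sets, a replicate block, each set alone and leaving out each array; leaving out both arrays of low upper quartile and leaving out replicate 2 of every Nnm group were added after seeing the data.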

Additional observations from a re-analysis of the deposited data

Results flagged for a closer look

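Fk and Ra at 48 h were compared directly, and OAS3 differed between them by −1.03 on the log2 scale. The change of IFIT2 under Ra differed between 48 h and 12 h by −2.3. The changes under CsA and under Ra at 48 h, each against its own vehicle and each from its own set, differed for IRF1 by 2.82, for OAS3 by −1.96, for ISG20 by 2.55 and for TMEM140 by 2.14. All 6 passed an adjusted p of 0.05 in a limma test of the difference itself.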

How the results depend on the processing

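Of the 42 gene and comparison pairs called, 13 kept their call under every planned setting and every array left out, and 0 reversed their direction. The 13 were HERC5 in 3 Nnm comparisons (not the low dose at 24 h), OAS1 at the high dose at both times, IFIT2 and OASL at the high dose and 48 h, USP18 at the high dose and 24 h, OAS3 in both control comparisons and in CsA against Ra, ISG20 in CsA against Ra, and TRIM14 in the Fk and Ra controls. Calls were lost for 7 under quantile normalization, 5 under centring, 12 without the filter, 4 with the mean of probe sets, 13 with each set fitted alone and 0 with the replicate block. The counts of genes called among the 39 moved by over 1.5 times as follows; the cause was not tested. After quantile normalization CsA 48 h gave 1, the CsA controls 4, Fk against Ra 48 h 2, Ra 12 h 3 and the Ra time difference 0; after centring the first 4 were 1, 4, 2 and 3. Without the filter the CsA controls gave 1, Ra 48 h 3 and the Ra time difference 0; with the mean of probe sets Ra 12 h gave 0 and the Ra time difference 3. With each set alone CsA 48 h gave 0, Fk against Ra 48 h 2, the high dose of Nnm 14 and 12 at 24 h and 48 h, the low dose at 48 h 8, Ra 12 h 0, Ra 48 h 2 and the Ra time difference 0; comparisons across sets cannot be fitted that way. The replicate block gave 9 for the CsA controls, 8 for CsA against Ra 48 h, 7 and 7 for the low dose of Nnm and 14 and 11 for the high dose. These Nnm counts are 17.9%, 17.9%, 35.9% and 28.2% of the 39, against 18.0%, 13.0%, 33.7% and 27.4% of all genes in either direction. Called higher were 8.35%, 6.75%, 15.6% and 14.4% of all genes. At 48 h all the listed genes called with the block were higher at both doses. The lower ones were IFI35 at both doses and 24 h, and OAS3, SAMD9 and TRIM14 at the high dose and 24 h. In the Fk and Ra set it is uncertain whether the numbers pair the arrays. Correlations of same-numbered pairs ran there from −0.18 to 0.76, with pairs within a time and across times pooled. There the block gave 6 for Fk against Ra 48 h, 15.4% of the 39 against 27.0% of all genes. It gave 11 for the controls (28.2% against 29.9%), 6 for Ra 12 h (15.4% against 0.678%) and 11 for Ra 48 h (28.2% against 28.5%). The Ra time difference gave 12 (30.8% against 11.8%). Without both arrays of low upper quartile there were 6 in the CsA controls, 7 in the Fk and Ra controls, 5 and 7 at the low dose of Nnm, 4 for Ra 12 h and 0 for the Ra time difference. Without replicate 2 of every Nnm group there were 5 at the low dose and 24 h, 11 at the high dose and 48 h and 1 for high against low at 24 h (TRIM14). Leaving out 1 array gave 0 to 3 for CsA 48 h, 1 to 6 for the CsA controls, 2 to 6 for CsA against Ra 48 h, 0 to 6 for Fk against Ra 48 h, 3 to 9 for the Fk and Ra controls, 0 to 2 for high against low Nnm at 24 h, 3 to 9 and 4 to 10 for the high dose, 0 to 5 and 1 to 4 for the low dose, 0 to 3 for Ra 12 h, 0 to 9 for Ra 48 h and 0 to 9 for the Ra time difference. No share over all genes is given beside the counts with 1 array left out. The median change over the 39 genes moved by more than its spread in 52 of 397 values.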
